A study of Mus musculus with 34 samples.

Results

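Imprinted growth genes are described here in skeletal muscle and liver of mice that lack muscle glycogen synthase, the enzyme that builds glycogen in muscle, and in muscle of the line GSL30. They are 9 genes (Igf2, Dlk1, H19, Grb10, Cdkn1c, Peg3, Plagl1, Ndn and Mest), and every probe set annotated to these symbols was taken, 22 of the 22690 on the Affymetrix array and 9 of 12393 genes with a symbol of their own. The genes were chosen by what they are and by their measured differences on these same arrays, between each mutant group and its wild type and between wild-type ages, so their values in those 5 contrasts are a description. Counts past a threshold there are printed beside the share over all probe sets, and nothing is read from them. Muscle glycogen synthase knockout mice, labelled MGSKO and called KO here, were set against wild type (WT) at 3 months in anterior tibialis (4 KO and 4 WT arrays), medial gastrocnemius (3 and 5) and liver (4 and 4). GSL30 mice were set against WT in medial gastrocnemius at 8 months (5 and 5). GSL30 is known as a transgenic line that overexpresses glycogen synthase in skeletal muscle, and the labels give neither its promoter nor how many founders it rests on. The tibialis labels state the strain as C57BL6/129SV, and no label states that the arrays of a group are different animals.

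An imprinted gene is read mainly from the chromosome inherited from 1 parent, which DNA methylation laid down in that parent's germ line marks. Several of the paternally expressed genes promote fetal growth (Igf2, Mest, Peg3, Dlk1), several of the maternally expressed genes restrain it (H19, Grb10, Cdkn1c), and many of them are turned down together in organs after birth. In skeletal muscle they are known from myoblast differentiation, from satellite cells and from regeneration. Arrays of this kind measure RNA from both parental copies together and cannot show which copy was read.

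The trimmed mean of every array was about 1000, and array medians lay between 296.4 and 440.3. Gys1, the targeted gene, read 34.2 to 72.5 in KO tibialis against 8183.7 to 9958.2 in WT tibialis, and 58.1 to 165 in KO gastrocnemius against 3954.7 to 6377.6 in WT gastrocnemius. Hepatocyte RNA was present in gastrocnemius: the 12 hepatocyte markers, summed, read 62420 to 200800 in KO and 66150 to 895500 in WT gastrocnemius at 3 months, and 9545 to 16950 in GSL30 and 17360 to 43760 in WT gastrocnemius at 8 months, against 2618 to 4525 in tibialis and 568200 to 741800 in liver. The 895500 belongs to WT replicate 2 of 3 months, an array that stands apart, with the highest fibre marker level too (16.76). Its sum exceeded every liver array, but its mean log2 over the 12 markers (15.75) lay inside the liver range of 15.5 to 15.88. Across 431 probe sets far brighter in WT liver than in WT tibialis, its median level was 25.5% of WT liver. Skeletal muscle fibre markers were bright in every muscle array, with a mean log2 level of 15.01 to 16.76, against 7.04 to 8.26 in liver. In whole tissue, fewer cells of a type and less RNA per cell cannot be told apart.

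By the brightest probe set of each, all 9 genes read higher in muscle than in liver. The mean of every muscle group lay above the means of both liver groups, and the step between the lowest muscle group and the higher liver group was larger than the SD of either group. H19 had group means of 4948 to 9423 in muscle and 138.2 to 203.8 in liver. Dimmer probe sets did not all follow: Ndn 1456575_at averaged 222.2 in WT liver and 127.8 in WT tibialis, and those of Igf2 (1415931_at) and Plagl1 (1450533_a_at) averaged under 100 in all 8 groups. Levels of different probe sets do not compare transcript abundance between genes, since each probe set has its own affinity.

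**Figure D1:**
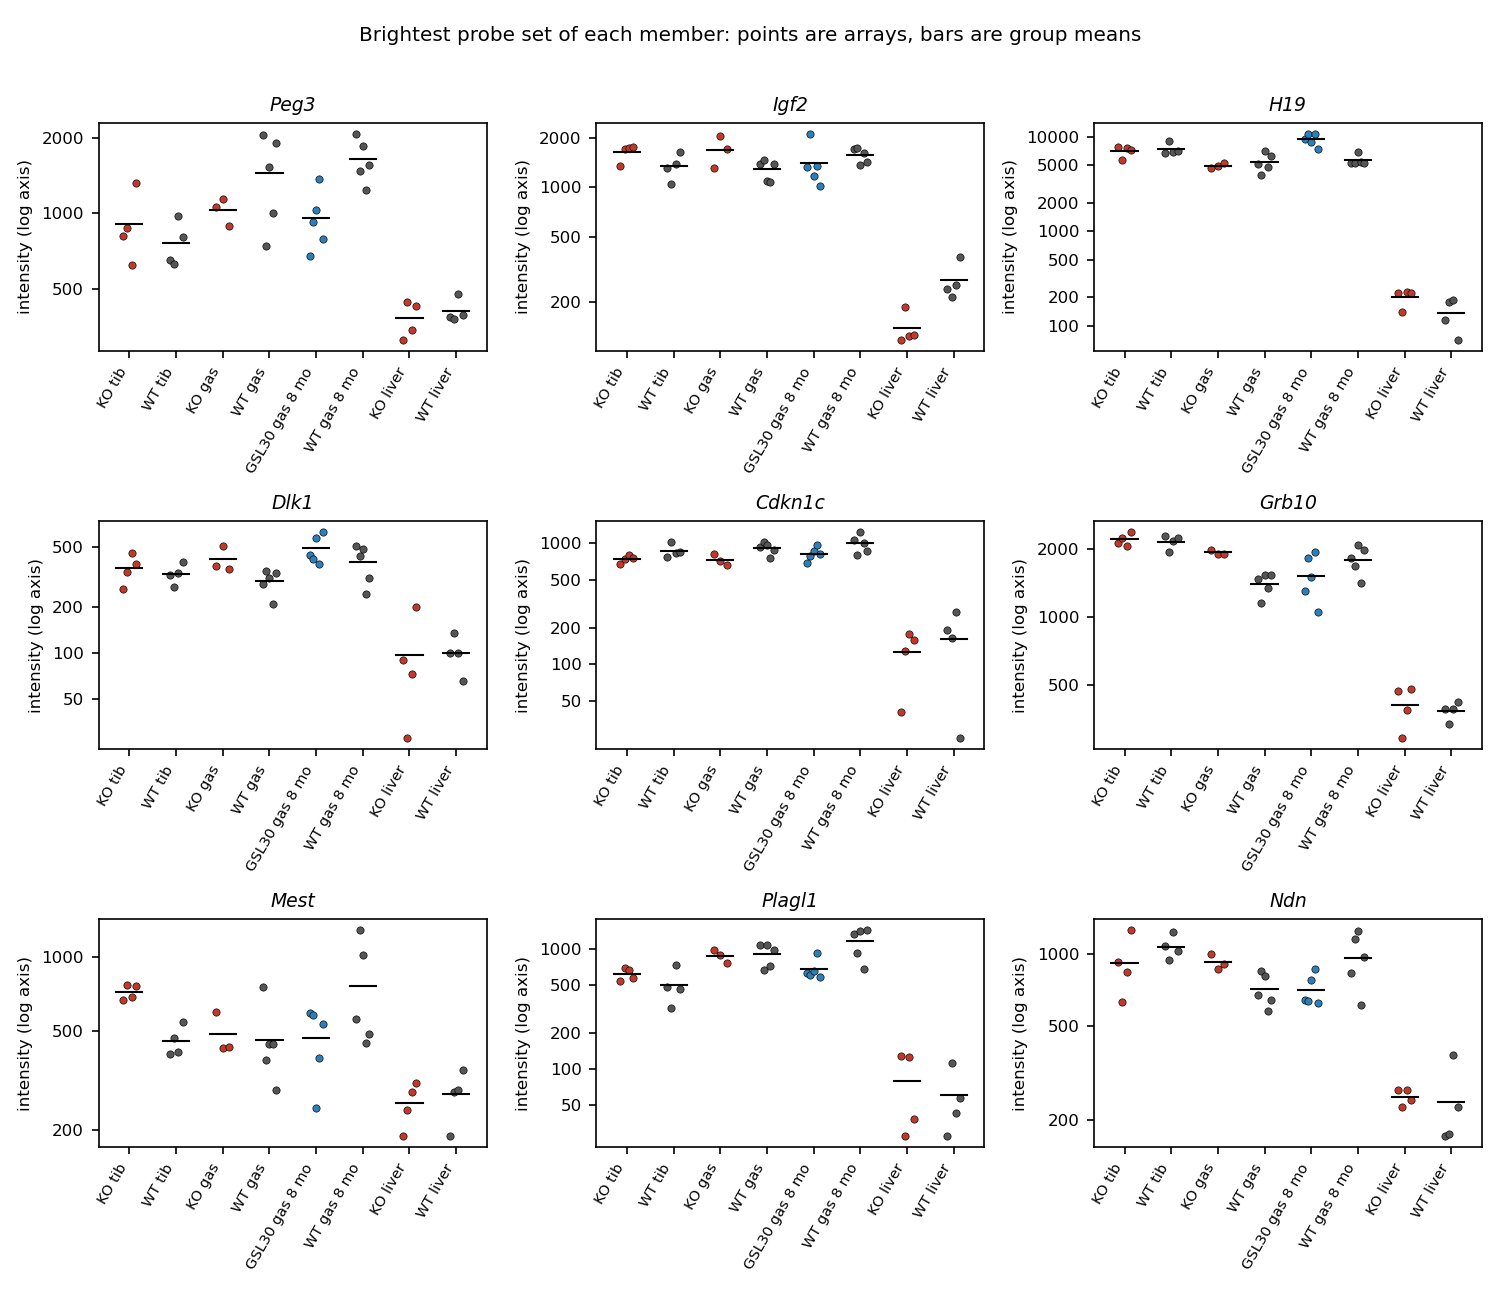
Intensity (log axis) of the brightest probe set of each gene in the 8 groups, each mutant group left of its WT. Points are arrays and bars are group means; all muscle group means lie above the liver means, and H19 in GSL30 gastrocnemius lies above its WT, with means of 9423 and 5627.

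Tissue was not used to choose the genes, so WT liver and WT tibialis at 3 months were tested. All 11 probe sets of the 7 genes that passed the filter on dim values fell in liver (limma, adjusted p under 0.05), where 41.1% of all probe sets did, and in 10 of them the groups did not overlap, as in 37.9% of all. Of the 11, 5 averaged under the filter's level of 227.3 in liver (H19, Cdkn1c and Ndn 1415923_at, 1435382_at and 1435383_x_at), so they passed it only through tibialis and had to differ, and nothing is read from the count. The other 6 averaged above that level in both tissues. Tissue, starting RNA (10 µg in liver and 5 µg in muscle) and label set cannot be told apart in this contrast. A probe set passed the filter when its mean log2 value reached the 40th percentile, so 11 dim probe sets of these genes were not tested.

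H19 read 115.2, 180.9, 186.1 and 70.5 in WT liver, against 6731.4, 9085.9, 6909.2 and 7117.5 in WT tibialis, a log2 difference of -5.36 (SE 0.22). It passed the filter only through tibialis, so no p-value is given for it. Ndn, which encodes the growth-restraining MAGE protein necdin, averaged less in liver in 4 tested probe sets, of which all but the brightest passed the filter only through tibialis. The brightest averaged 238.1 ± 96.6 in WT liver and 1071 ± 123 in WT tibialis (SD, n = 4 each; -2.01, SE 0.21, limma adjusted p = 8.39e-06). Grb10 averaged 385 ± 35.1 in WT liver and 2149 ± 152 in WT tibialis (SD, n = 4 each; -2.34, SE 0.11, limma adjusted p = 2.34e-08). Liver and tibialis arrays did not overlap for these 3. Cdkn1c, which also passed the filter only through tibialis, averaged 163.3 ± 103 in WT liver and 869.9 ± 109 in WT tibialis (SD, n = 4 each; -2.28, SE 0.38). Igf2 averaged 270.9 ± 72.4 in WT liver and 1343 ± 248 in WT tibialis (SD, n = 4 each; -2.13, SE 0.18, limma adjusted p = 2.04e-06).

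Peg3 and Mest had the smallest differences among the tested genes. The brightest Peg3 probe set averaged 407.6 ± 45.7 in WT liver and 762.4 ± 160 in WT tibialis (SD, n = 4 each; -0.81, SE 0.15, limma adjusted p = 0.00078). Mest averaged 278.7 ± 66.6 in WT liver and 457.7 ± 63.1 in WT tibialis (SD, n = 4 each; -0.64, SE 0.17, limma adjusted p = 0.0061). A second Peg3 probe set, 1417355_at, read 83.4, 413.1, 273.4 and 238 in WT liver and 326.3, 637.8, 525.1 and 616.7 in WT tibialis, and these groups overlap. Its call (-1.03, limma adjusted p = 0.0217) was lost without tibialis replicate 2 (0.0596) or replicate 4 (0.0508). Dlk1 and Plagl1 were below the filter, with means of 100.4 ± 28.8 and 59.78 ± 37 in WT liver, against 333.7 ± 51.1 and 502.7 ± 173 in WT tibialis, and were not tested.

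Gastrocnemius and tibialis, both fast limb muscles, differed less. Of 15 tested probe sets, 1 rose in WT gastrocnemius at 3 months (12.2% of all probe sets rose) and 6 fell (14.8% of all fell), and these 6 did not overlap between the muscles (15% of all did not, with the lower level in gastrocnemius). Ndn carried 5 of the 6. Its probe set 1435382_at read 580.7, 584.3, 698.1, 494.3 and 633.8 in WT gastrocnemius and 1128.3, 1274.4, 1538.0 and 1194.3 in WT tibialis (-1.04, SE 0.14, limma adjusted p = 0.000799). The other 4 fell too, with log2 differences of -1.15 to -0.57 and limma adjusted p between 0.00191 and 0.0162.

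Grb10 fell as well, with 1461.0, 1148.1, 1526.7, 1339.1 and 1527.2 in WT gastrocnemius and 2276.8, 1931.0, 2166.8 and 2221.0 in WT tibialis (-0.61, SE 0.12, limma adjusted p = 0.00643). A dimmer Grb10 probe set, 1425457_a_at, did not pass (0.88, SE 0.34, limma adjusted p = 0.0796). Plagl1 rose, averaging 918.3 ± 200 (SD, n = 5) in WT gastrocnemius and 502.7 ± 173 (SD, n = 4) in WT tibialis (0.83, SE 0.23, limma adjusted p = 0.0213). That call was lost without gastrocnemius replicate 1 (0.0526), tibialis replicate 1 (0.0528) or tibialis replicate 2 (0.0596). Peg3 averaged 1445 ± 566 (SD, n = 5) in WT gastrocnemius and 762.4 ± 160 (SD, n = 4) in WT tibialis and missed the threshold (0.81, SE 0.29, limma adjusted p = 0.0587), as did H19 (-0.47, SE 0.18, limma adjusted p = 0.0752).

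All 12 hepatocyte markers rose in WT gastrocnemius over WT tibialis, with a median log2 difference of 6.76. Of 11 fibroblast and tendon markers 7 fell and 1 rose (median -1.07), with summed levels of 28000 to 40560 in WT gastrocnemius and 51930 to 73520 in WT tibialis, a shift of the size of that in Ndn, and their part in the Ndn result was not tested. Without gastrocnemius replicate 2 alone, Peg3 passed (1.01, limma adjusted p = 0.0109), as did Grb10 1425457_a_at (1.03, 0.0463), and no call was lost. Without the gastrocnemius arrays of high liver signal (replicates 1, 2 and 4), Ndn 1435382_at kept its call (-0.89, limma adjusted p = 0.0165), as did Plagl1 (1.04, 0.0464), and Peg3 passed (1.13, 0.0163). Grb10 did not pass without them (-0.48, 0.0592), nor did Ndn 1437853_x_at (-0.54, 0.0736) and 1435383_x_at (-0.89, 0.0639). Muscle and label set cannot be told apart, because the label sets differ by tissue.

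**Figure D2:**
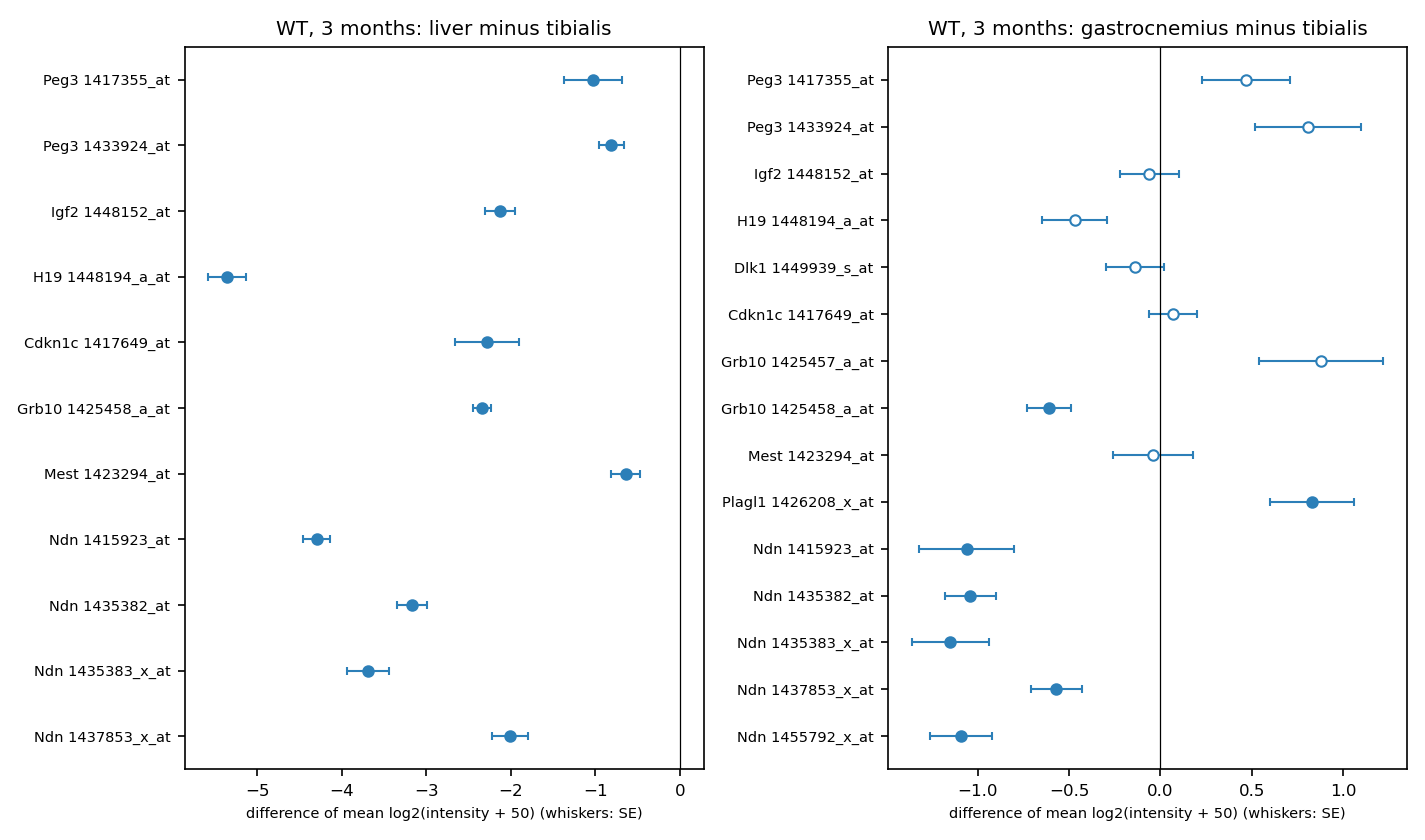
Log2 difference (x axis, whiskers SE) of each tested probe set of the 9 genes, WT liver minus WT tibialis on the left and WT gastrocnemius minus WT tibialis on the right. Filled points passed limma's adjusted p of 0.05: all 11 on the left, and 7 of 15 on the right, where Plagl1 (0.83) is the only filled point above 0.

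In the contrasts that chose the genes, most of them differed by less than 0.5 on the log2 scale between mutant and WT. In KO tibialis 1 of 17 tested probe sets was past the threshold, higher (Mest), where 0.663% of all were, and it was also the only 1 whose groups did not overlap with KO higher (5.2% of all). In KO gastrocnemius 0 of 16 were past it (limma, 4 of the 16 at an unadjusted p under 0.05), where 0.147% of all were, and 3 did not overlap with KO higher (7.26% of all). In KO liver 0 of 6 were past it (limma, 0 at an unadjusted p under 0.05), where 0.00737% of all were, and the groups overlapped in all 6 (5.17% of all did not overlap). In GSL30 gastrocnemius 3 of 16 were past it, H19 higher (2.11% of all) and 2 Peg3 probe sets lower (2.2% of all). H19 and 1 Peg3 probe set did not overlap, where 3.79% of all did so with GSL30 higher and 3.59% with GSL30 lower. Between 8 and 3 months in WT gastrocnemius 0 of 16 were past the threshold (limma, 2 at an unadjusted p under 0.05), where 6.19% of all were, and the ages overlapped in all 16 (8.41% of all did not overlap). The GSL30 contrast and the age contrast share the WT arrays of 8 months, and the age contrast and the KO gastrocnemius contrast share the WT arrays of 3 months.

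**Figure D3:**
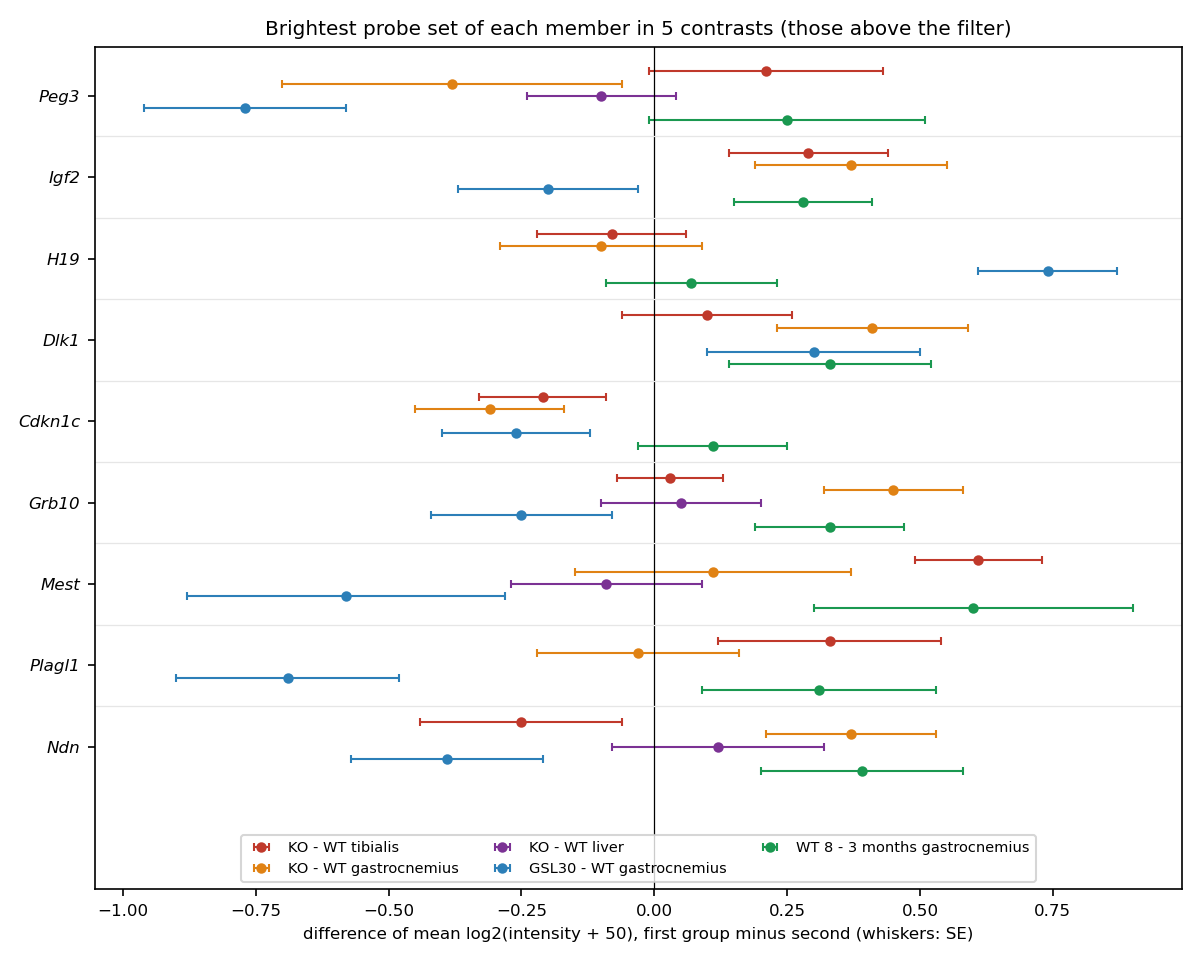
Log2 difference (x axis, whiskers SE) of the brightest probe set of each gene in the 5 contrasts that chose the genes, shown where it passed the filter. H19 lies at 0.74 and Peg3 at -0.77 in GSL30 minus WT, and Mest at 0.61 in KO minus WT tibialis.

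The ligands came first in the description by role. Igf2, insulin-like growth factor 2, signals through the IGF1 receptor and drives fetal growth. It read 1343.8, 1723.2, 1734.4 and 1759.1 in KO tibialis, against 1307.9, 1039.9, 1382.2 and 1643.2 in WT tibialis (0.29, SE 0.15). In gastrocnemius it read 1303.5, 2054.0 and 1718.2 in KO and 1391.3, 1473.1, 1088.9, 1078.1 and 1395.7 in WT (0.37, SE 0.18). The groups overlap in both muscles. In GSL30 gastrocnemius it averaged 1397 ± 429, against 1570 ± 166 in WT (SD, n = 5 each; -0.20, SE 0.17). In liver, below the filter, it read 116.7, 186.2, 123.1 and 126.3 in KO and 239.8, 214.8, 252.0 and 376.9 in WT, groups that do not overlap at dim levels.

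Dlk1, a transmembrane protein of the Notch ligand family whose shed form restrains adipocyte differentiation, differed most in KO gastrocnemius. It read 375.7, 510.9 and 357.4 in KO gastrocnemius and 284.6, 350.7, 311.4, 211.6 and 337.6 in WT gastrocnemius (0.41, SE 0.18), so every KO array lay above every WT array. Without the arrays of high liver signal the difference was 0.35, and without WT replicate 2 alone 0.47. In GSL30 gastrocnemius it averaged 492.2 ± 106, against 397.4 ± 113 in WT (SD, n = 5 each; 0.30, SE 0.20), with overlap. In tibialis the difference was 0.10 (SE 0.16).

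H19 is a maternally expressed noncoding RNA that shares an imprinting control region with Igf2, and its first exon holds the hairpin of miR-675. The only probe set for it is annotated to both Mir675 and H19, and RefSeq places that hairpin within H19 on chromosome 7 (GRCm38.p6). The mature sequences of miR-675 are shown because the H19 transcript measured here is their precursor; the seed (bases 2 to 8) is in capitals, and the array did not measure the mature forms.
mmu-miR-675-5p: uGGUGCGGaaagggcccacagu
mmu-miR-675-3p: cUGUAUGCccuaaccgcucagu
They lie on the minus strand at chr7:142577112-142577133 and chr7:142577078-142577099.

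H19 was higher in GSL30 muscle. It read 9386.5, 10793.6, 8842.0, 10596.6 and 7495.1 in GSL30 gastrocnemius and 5227.1, 5262.9, 6942.8, 5399.9 and 5302.8 in WT gastrocnemius at 8 months, 9423 ± 1350 against 5627 ± 738 (SD, n = 5 each; 0.74, SE 0.13). The lowest GSL30 array lay above the highest WT array. H19 was also brighter in GSL30 than in any other group, by a step of 1962 over WT tibialis that exceeded both SDs. The difference was 0.68 without the 2 WT arrays of high liver signal and 0.50 with the hepatocyte score as covariate, and under these 2 settings it was not past the threshold. With the covariate 0 of all probe sets were past it. The score ran from 8.09 to 9.17 in GSL30 and from 9.3 to 11.09 in WT, so that setting cannot separate group from liver signal. Liver itself read 70.5 to 227.7 for H19. In KO tibialis H19 averaged 7077 ± 959, against 7461 ± 1090 in WT (SD, n = 4 each; -0.08, SE 0.14), and in KO gastrocnemius the difference was -0.10 (SE 0.19).

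**Figure D4:**
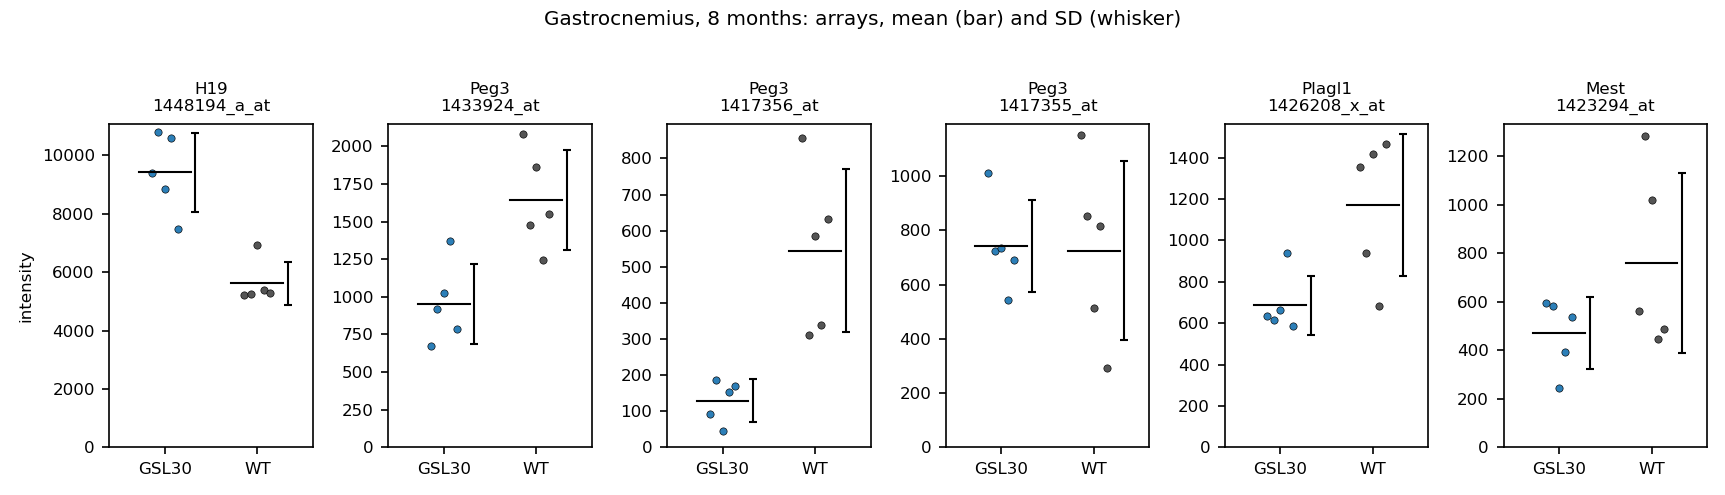
Intensity (linear axis from 0) of H19, the 3 Peg3 probe sets, Plagl1 and Mest in GSL30 and WT gastrocnemius at 8 months. Points are arrays, bars are means and whiskers SDs; GSL30 lies above WT for H19 (9423 against 5627) and below it for Peg3 1417356_at (129.5 against 544), while Peg3 1417355_at averages 741.7 against 725.8.

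Grb10 encodes an adaptor that binds the activated insulin and IGF1 receptors and dampens their signalling. It read 1972.7, 1893.2 and 1899.6 in KO gastrocnemius and 1461.0, 1148.1, 1526.7, 1339.1 and 1527.2 in WT gastrocnemius, 1922 ± 44.2 (SD, n = 3) against 1400 ± 161 (SD, n = 5; 0.45, SE 0.13). The KO arrays lay together above all WT arrays. The dimmer probe set 1425457_a_at lay the other way, at 290 ± 218 (SD, n = 3) in KO and 436.5 ± 147 (SD, n = 5) in WT (-0.74, SE 0.48), and over the 26 muscle arrays it correlated at r = -0.38 with the brighter. Without the arrays of high liver signal the difference of the brighter was 0.30, and without WT replicate 2 alone 0.38. In tibialis Grb10 averaged 2195 ± 143 in KO and 2149 ± 152 in WT (SD, n = 4 each; 0.03, SE 0.10), and in GSL30 gastrocnemius 1518 ± 362, against 1785 ± 260 in WT (SD, n = 5 each; -0.25, SE 0.17).

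Cdkn1c encodes p57, an inhibitor of cyclin-dependent kinases that takes part in cell cycle exit of myoblasts. It averaged less in all 3 mutant muscles than in their WT, with overlap each time. The values were 742.7 ± 50 in KO tibialis against 869.9 ± 109 in WT (SD, n = 4 each; -0.21, SE 0.12) and 728.6 ± 78.2 (SD, n = 3) in KO gastrocnemius against 914.5 ± 104 (SD, n = 5) in WT (-0.31, SE 0.14). GSL30 gastrocnemius averaged 819.6 ± 102, against 997.4 ± 173 in WT (SD, n = 5 each; -0.26, SE 0.14). KO gastrocnemius and GSL30 were each set against their own WT arrays. Nothing is read from the shared direction, since these contrasts chose the genes, and none of the 3 differences was past the threshold.

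Peg3 encodes a large zinc finger protein active in p53 and stress signalling and expressed in muscle stem cells. It was lower in GSL30 muscle by 2 of its 3 probe sets. The brightest read 672.2, 918.4, 1024.9, 1367.5 and 787 in GSL30 and 2079.4, 1479.7, 1859.8, 1242.5 and 1552.2 in WT, 954 ± 267 against 1643 ± 329 (SD, n = 5 each; -0.77, SE 0.19), with 1 GSL30 array inside the WT range. Probe set 1417356_at read 93.0, 185.4, 44.6, 154.1 and 170.3 in GSL30 and 855.8, 310.0, 584.7, 338.2 and 631.1 in WT, 129.5 ± 59 against 544 ± 226 (SD, n = 5 each; -1.72, SE 0.30), without overlap. Its GSL30 mean lies under the filter's level of 255.9, so it passed the filter through WT. With the hepatocyte score as covariate its difference was -1.95, and 0 of all probe sets were past the threshold under that setting. Probe set 1417355_at did not follow, at 741.7 ± 170 in GSL30 and 725.8 ± 330 in WT (SD, n = 5 each; 0.13, SE 0.29), and over the muscle arrays it correlated at r = 0.30 with the brightest. The difference of the brightest ran from -1.04 to -0.66 over 17 alternatives and was past the threshold in 6 of them. It was -0.83 without the WT arrays of high liver signal, where it was not past the threshold.

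In KO gastrocnemius the brightest Peg3 probe set averaged 1030 ± 127 (SD, n = 3), against 1445 ± 566 (SD, n = 5) in WT (-0.38, SE 0.32), and 1417356_at 192.4 ± 137 against 404.2 ± 101 (-1.06, SE 0.37). WT gastrocnemius spread widely, between 739.1 and 2050.0 for the brightest. In KO tibialis that probe set averaged 907.5 ± 295, against 762.4 ± 160 in WT (SD, n = 4 each; 0.21, SE 0.22), and in KO liver 380.2 ± 64, against 407.6 ± 45.7 in WT (SD, n = 4 each; -0.10, SE 0.14).

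Plagl1, a zinc finger transcription factor known as a regulator of other imprinted genes, was read by 1 bright probe set and by a second that stayed dim in every group. The bright probe set read 632.3, 615.8, 665, 937.4 and 585.9 in GSL30 and 1353.3, 937.8, 1419.3, 684.0 and 1463.2 in WT gastrocnemius, 687.3 ± 143 against 1172 ± 343 (SD, n = 5 each; -0.69, SE 0.21), with overlap. It averaged 624.6 ± 70.1 in KO tibialis and 502.7 ± 173 in WT (SD, n = 4 each; 0.33, SE 0.21), and differed by -0.03 (SE 0.19) in KO gastrocnemius.

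By their brightest probe sets, Peg3 and Plagl1 went up and down together across muscle arrays. Over the 26 arrays, which fall into 6 groups and 3 label sets, their log2 levels correlated at r = 0.83 (Spearman 0.81), at 0.80 without the 2 arrays farthest from the Peg3 median, and at 0.65 after group means were taken out. Within groups other pairs correlated as closely, Peg3 with Grb10 at 0.66 and Grb10 with Plagl1 at 0.65, though over all arrays these were at -0.02 and -0.06. Of the 36 pairs among the 9 genes the median r was 0.11, and Grb10 with Ndn (r = 0.64) was the only other above 0.5 over all arrays. Both of these probe sets averaged less in GSL30 than in its WT, where Plagl1 was not past the threshold. Both averaged more in gastrocnemius than in tibialis of WT mice. Peg3 1417355_at, which correlated at r = 0.30 with the brightest, did not average less in GSL30.

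**Figure D5:**
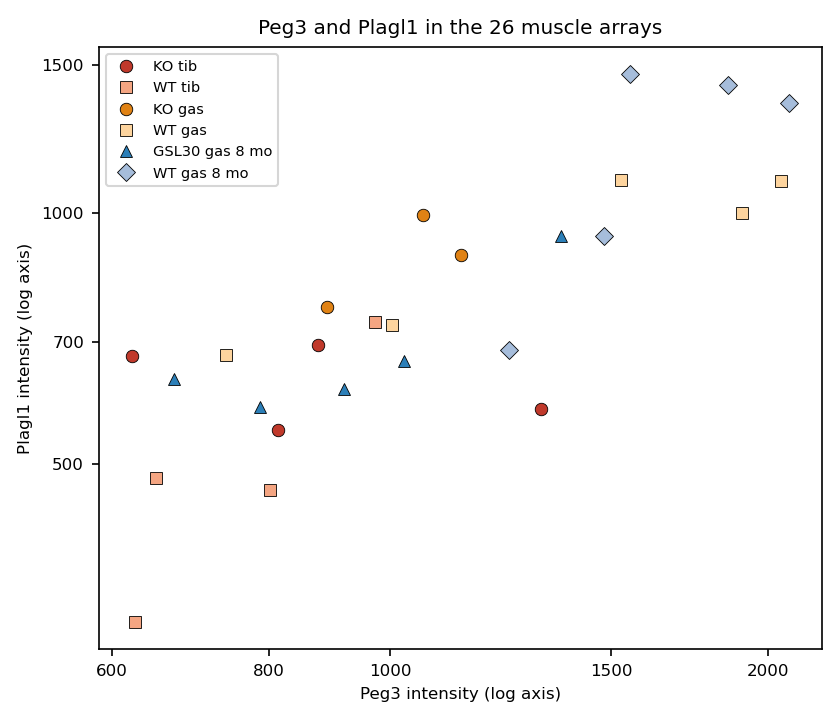
Plagl1 against Peg3 intensity (brightest probe sets, both axes log) in the 26 muscle arrays, marked by group. The points run from low values of both in WT tibialis to high values of both in WT gastrocnemius at 8 months (r = 0.83).

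The 250 bases before the RefSeq starts (GRCm38.p6) of this pair, the one of highest r over all arrays, are shown, with each CpG, the dinucleotide that carries methylation, in capitals. The Peg3 window lies at chr7:6730420-6730669 on the minus strand and the Plagl1 window at chr10:13090582-13090831 on the plus strand.
Peg3: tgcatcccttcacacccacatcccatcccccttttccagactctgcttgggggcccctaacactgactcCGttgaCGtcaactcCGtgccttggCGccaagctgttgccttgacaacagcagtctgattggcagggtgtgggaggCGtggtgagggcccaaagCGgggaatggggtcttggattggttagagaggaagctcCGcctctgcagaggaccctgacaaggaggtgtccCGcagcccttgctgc
Plagl1: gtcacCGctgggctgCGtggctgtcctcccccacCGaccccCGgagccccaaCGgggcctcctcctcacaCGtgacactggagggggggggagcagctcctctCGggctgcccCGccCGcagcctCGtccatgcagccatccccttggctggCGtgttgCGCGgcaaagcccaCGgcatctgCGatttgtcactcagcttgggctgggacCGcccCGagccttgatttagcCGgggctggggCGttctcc
The motif counted was CG, which reads the same on both strands. The Peg3 window holds 8 CpG at 60.4% GC (observed over expected 0.35), and 57.0% of all 32851 promoter windows of that length hold fewer. The Plagl1 window holds 19 at 70.4% GC (0.62), and 80.3% of all windows hold fewer. RefSeq gave 13 windows for 7 of the genes, and 6 of the 13 passed an observed over expected ratio of 0.6, against 34% of all windows. Among the 6 are Mest windows at chr6:30737800-30738049 and chr6:30737803-30738052, which overlap almost fully, so nothing is read from the count. No methylation was measured in these samples.

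Ndn lies on chromosome 7, where Peg3, Ndn, H19, Igf2 and Cdkn1c are found in that order, with Gys1 itself between Peg3 and Ndn. Its 5 bright probe sets in muscle correlated at r = 0.55 to 0.87 with each other. All 6 tested in tibialis averaged less in KO than in WT, with log2 differences of -0.39 to -0.14. Of these, 1438939_x_at averaged 226.5 in KO, under the filter's level of 231.7, so it passed through WT. Of the untested Ndn probe sets, 1438978_x_at differed by -0.23 and 1456575_at by 0.19. In the same contrast 9 of 11 fibroblast and tendon markers averaged less in KO (median -0.34, summed levels of 49240 to 59770 in KO and 51930 to 73520 in WT), and their part in the Ndn values was not tested. Probe set 1415923_at read 871.9, 1064.5, 870.6 and 879.1 in KO tibialis, against 1286.1, 1243.8, 1280.6 and 1026.5 in WT tibialis (-0.37, SE 0.12), and 1 KO array lies above the lowest WT array. In KO gastrocnemius the brightest probe set averaged 921.3 ± 71.1 (SD, n = 3), against 709 ± 117 (SD, n = 5) in WT (0.37, SE 0.16), without overlap, while the other 4 differed by -0.01 to 0.23. In GSL30 gastrocnemius all 5 averaged less than in WT, the brightest at 707.3 ± 108 against 961.2 ± 253 (SD, n = 5 each; -0.39, SE 0.18).

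Mest, a member of the alpha/beta hydrolase family that is paternally expressed, hosts miR-335 in an intron. Its mature forms are shown as products of the same primary transcript, with seeds in capitals; all 4 seeds printed here differ.
mmu-miR-335-5p: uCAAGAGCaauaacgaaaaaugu
mmu-miR-335-3p: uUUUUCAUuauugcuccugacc
They lie on the plus strand at chr6:30741314-30741336 and chr6:30741354-30741375 (RefSeq, GRCm38.p6).

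Mest was higher in KO tibialis, at 665.6, 766.7, 690.1 and 761.3 in KO and 405.5, 468.5, 414.2 and 542.7 in WT, 720.9 ± 50.8 against 457.7 ± 63.1 (SD, n = 4 each; 0.61, SE 0.12). Every KO array lay above every WT array. The difference ran from 0.49 to 0.69 over 13 alternatives and was past the threshold in 4 of them. In KO gastrocnemius Mest read 598.6, 427.0 and 433.9, against 752.5, 382.0, 444.4, 444.9 and 290.1 in WT (0.11, SE 0.26), and the KO arrays lie inside the WT range. In GSL30 gastrocnemius it read 594.3, 581.9, 246.6, 391.6 and 536.9, against 561.7, 1282.0, 1018.9, 448.5 and 489.0 in WT (-0.58, SE 0.30), where 2 WT arrays lie far above the other 8.

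With age, 14 of the 16 tested probe sets averaged more at 8 than at 3 months in WT gastrocnemius, with a median log2 difference of 0.33 beside 0.07 over all probe sets. Mest averaged 760 ± 371 at 8 months and 462.8 ± 174 at 3 months (SD, n = 5 each; 0.60, SE 0.30). Grb10 averaged 1785 ± 260 at 8 months and 1400 ± 161 at 3 months (SD, n = 5 each; 0.33, SE 0.14), and Igf2 1570 ± 166 and 1285 ± 187 (SD, n = 5 each; 0.28, SE 0.13). H19 hardly differed, at 5627 ± 738 and 5426 ± 1240 (SD, n = 5 each; 0.07, SE 0.16). Age and label set cannot be told apart, and 11 of the 12 hepatocyte markers fell at 8 months (median -4.03) while 7 of 11 fibroblast, 6 of 10 macrophage, 5 of 7 adipocyte, 5 of 11 endothelial and 3 of 5 smooth muscle markers rose. Without the arrays of high liver signal Mest differed by 0.75, Grb10 by 0.18 and Peg3 by -0.02, against 0.25 for Peg3 with them, and 11 of the 16 averaged more at 8 months. With the hepatocyte score as covariate 7 of the 16 did, with differences of -0.80 for Peg3, -0.60 for H19, -0.23 for Plagl1, 0.02 for Grb10 and 1.32 for Mest. The score ran from 9.3 to 11.09 at 8 months and from 11.75 to 15.75 at 3 months, without overlap. That setting therefore cannot separate age from liver signal, and nothing is read from its values. The part of the other cell types was not tested.

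Other imprinted genes were set beside the 9; 41 of the list were on the array. In GSL30 gastrocnemius 1 of 22 tested fell (2.2% of all probe sets did) and none rose. Meg3, the maternally expressed noncoding RNA next to Dlk1 on chromosome 12, fell in 1 of 4 probe sets, at 910.7 ± 312 in GSL30 and 1542 ± 157 in WT (SD, n = 5 each; -0.78, SE 0.19, limma adjusted p = 0.044), and its brightest differed by 0.04 (0.898). In KO tibialis 0 of 22 passed (limma, 7 at an unadjusted p under 0.05), with Meg3 closest at 1031 ± 145 in KO and 612.6 ± 119 in WT (SD, n = 4 each; 0.71, SE 0.16, limma adjusted p = 0.0657). In KO gastrocnemius 0 of 23 passed (limma, 6 unadjusted) and in KO liver 0 of 19 (limma, 1 unadjusted).

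With age, Igf2r, the receptor that clears Igf2, rose to 2240 ± 178 at 8 months, against 1619 ± 214 at 3 months (SD, n = 5 each; 0.46, limma adjusted p = 0.0466). Nnat, a proteolipid of the endoplasmic reticulum, rose to 3036 ± 1100 at 8 months, against 1248 ± 235 at 3 months (SD, n = 5 each; 1.16, limma adjusted p = 0.0348). The transporters Slc38a4 (2499 ± 513 at 8 months and 6838 ± 2830 at 3 months, -1.35, limma adjusted p = 0.0181) and Slc22a18 (171.3 ± 24.6 and 767.9 ± 495, -1.61) averaged less at 8 months. Slc22a18 lay under the filter's level of 253.8 at 8 months and passed only through 3 months, so no p-value is given for it. In WT liver the brightest probe sets of Slc38a4 and Slc22a18 averaged 25800 and 3278, and 11 of the 12 hepatocyte markers fell with age. The part of liver RNA in these 2 values was not tested. In WT liver against WT tibialis 6 of 23 rose and 13 fell, in a contrast that called 9417 of all 13576 probe sets. Slc38a4 rose (3.82), and Nap1l4 (-1.95) and Dcn (-1.69) fell, each with a limma adjusted p of 3.21e-07 or below. Ddc (5.14) and Slc22a18 (3.86) rose, and Asb4 (-3.32) fell. Each of these was dim in the tissue of lower level and passed the filter through the other, so no p-value is given for them. In WT gastrocnemius against WT tibialis Slc38a4 and Slc22a18 rose and 5 fell, among them Commd1, Nap1l4, Th and Mcts2, of 23 tested. Of all probe sets 12.2% rose and 14.8% fell there. All 12 hepatocyte markers rose in the same contrast, and their part was not tested.

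The insulin-like growth factor and insulin axis, in which Igf2 and Grb10 act, had 33 genes on the array. In GSL30 muscle 1 of 28 tested fell (2.2% of all probe sets did). Htra1, a secreted protease that cleaves IGF binding proteins, averaged 1407 ± 349 in GSL30 and 3004 ± 353 in WT (SD, n = 5 each; -1.09, SE 0.16, limma adjusted p = 0.00636). In KO tibialis Mtor, the growth-controlling kinase, rose to 2358 ± 203, against 1371 ± 195 in WT (SD, n = 4 each; 0.77, SE 0.13, limma adjusted p = 0.021) in 1 of 2 probe sets, as the only call of 27. In KO gastrocnemius 0 of 29 passed (limma, 11 unadjusted) and in KO liver 0 of 27 (limma, 5 unadjusted).

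In liver over tibialis 13 genes of this axis rose and 14 fell of 28, with 2 genes in both by different probe sets, in a contrast that called 9417 of all 13576 probe sets. Igf1 averaged 20390 ± 2330 in WT liver and 672 ± 49.1 in WT tibialis (SD, n = 4 each; 4.82, SE 0.12, limma adjusted p = 1.47e-10), opposite in direction to Igf2. Igfbp5 fell (-5.22, limma adjusted p = 1.64e-10). Igfbp1 rose by 7.01 and Htra1 fell (-4.71). Both were dim in the tissue of lower level and passed the filter through the other, so no p-value is given for them. In gastrocnemius over tibialis 14 rose and 6 fell of 29, with 1 gene in both by different probe sets (12.2% of all probe sets rose and 14.8% fell). Those that rose included Igf1, Igfals, Igfbp1, Igfbp2 and Ghr, named after their values were seen because liver is known to make them in abundance, and hepatocyte markers rose in the same contrast. Igfbp5 fell to 3737 ± 755 (SD, n = 5), against 12170 ± 1520 (SD, n = 4) in tibialis (-1.71, limma adjusted p = 0.000281). With age Igf2r and Igfbp7 (0.91, limma adjusted p = 0.00158) rose, and Igfbp1 (-2.86, 0.0292) and Igfbp2 (-2.97, 0.0167), both abundant in liver, fell.

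Cell cycle genes, which Cdkn1c restrains, gave 0 calls of 14 in GSL30 (limma, 3 unadjusted), 0 of 14 in KO tibialis (3), 0 of 13 in KO gastrocnemius (0) and 0 of 12 in KO liver (3). Ccnd2, a cyclin of early cell cycle, was the only call with age (0.68, limma adjusted p = 0.0441). The other cyclin-dependent kinase inhibitors gave no call in any mutant contrast or with age (limma, 2 of 4 unadjusted in GSL30 and 0 in the other 4 contrasts). Between WT tissues they differed: Cdkn1a, a p53 target, averaged 4798 ± 642 (SD, n = 5) in gastrocnemius and 1415 ± 562 (SD, n = 4) in tibialis (1.79, SE 0.23, limma adjusted p = 0.000699), and in liver against tibialis Cdkn1a rose in 1 of 2 probe sets while Cdkn2d, Cdkn2c and Cdkn1b fell. Of the cell cycle genes 3 rose and 8 fell of 15 in liver against tibialis, and 1 rose and 4 fell of 14 in gastrocnemius against tibialis. These contrasts called 9417 and 3669 of all 13576 probe sets.

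Among genes of the Notch pathway, to which Dlk1 is related, Notch3 fell in GSL30 (1409 ± 165 against 2080 ± 234 in WT, SD, n = 5 each; -0.55, limma adjusted p = 0.0298), as did Notch4 (333.6 ± 103 against 585.4 ± 67; -0.76, 0.0306), of 13 tested. A second Notch3 probe set differed by 0.12 (0.821), and 2.2% of all probe sets fell in GSL30. The KO contrasts and age gave no call (limma, 5 of 14 unadjusted in tibialis, 3 of 13 in gastrocnemius, 1 of 9 in liver and 4 of 13 with age). In liver against tibialis 1 rose and 7 fell of 11, and in gastrocnemius against tibialis 2 fell of 13. Of all probe sets 41.1% and 14.8% fell in these contrasts.

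Of 9 p53 targets and apoptosis genes, a pathway Peg3 is known to act in, 3 rose in GSL30, where 2.11% of all probe sets did. The p53 target Cdkn1a, of another list, gave no call in GSL30. A link of these genes to the Peg3 values was not tested. Ccng1, a cyclin induced by p53, averaged 12290 ± 1960 in GSL30 and 6821 ± 517 in WT (SD, n = 5 each; 0.83, SE 0.13, limma adjusted p = 0.00772). Siah2, a ubiquitin ligase, averaged 1139 ± 186 in GSL30 and 658.7 ± 94.3 in WT (SD, n = 5 each; 0.74, SE 0.14, limma adjusted p = 0.0156). Traf2 rose by 0.45 (0.0497). Other probe sets of Ccng1 and Siah2 did not pass, with adjusted p of 0.0894 to 0.362. In KO tibialis 0 of 9 passed (limma, 1 unadjusted), in KO gastrocnemius 0 of 9 (4) and in KO liver 0 of 8 (2), and with age Btg2 rose (1.37, limma adjusted p = 0.007). In liver against tibialis 1 rose and 6 fell of 8, and in gastrocnemius against tibialis 2 rose and 1 fell of 9. These contrasts called 9417 and 3669 of all 13576 probe sets.

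Markers of other cells of muscle moved with the GSL30 group. All 11 endothelial markers averaged less in GSL30 than in WT (median log2 difference -0.52; Cdh5, Esam, Pecam1, Ramp2 and Tie1 fell), with summed levels of 18050 to 20210 in GSL30 and 25550 to 29880 in WT. All 11 fibroblast and tendon markers averaged less (median -0.38; Dpt, Fmod, Pdgfra and Thbs4 fell), as did 7 of 7 adipocyte, 3 of 3 Schwann cell, 4 of 5 smooth muscle and 9 of 9 hepatocyte markers, the last with a median of -1.45. Of the 12 satellite cell and myogenic markers on the array 5 were tested, and 4 averaged more and 1 less. Past the threshold were 2 of them, Cdh15, a cadherin of satellite cells, and Des, desmin, both higher. Des also stands in the smooth muscle list, where it was the only marker to average more. Of the macrophage markers 1 of 10 fell (Mrc1), of the fibre markers 1 of 12 (Myh2), and of the fetal liver markers 0 of 2 (limma, 0 unadjusted). No list was at 0 in either group, though the hepatocyte markers Ahsg and Fgb averaged under 50 in GSL30. With the hepatocyte score as covariate the differences were 0.50 for H19, -1.04 for Peg3 and -0.86 for Plagl1. The score did not overlap between GSL30 and WT, so that setting cannot separate group from liver signal. The part of the other cell types in these values was not tested. In KO tibialis all 11 endothelial markers averaged more than in WT (median 0.41) with 0 past the threshold (limma, 8 unadjusted), while Fabp4, an adipocyte marker, rose and Fmod and Tnni2, of the fibroblast and fibre markers, fell. In KO gastrocnemius 10 of 11 did (median 0.46) while all 12 hepatocyte markers averaged less (median -1.37), again with none past it (limma, 6 and 0 unadjusted).

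Genes whose level followed each of the 9 most closely over the 26 muscle arrays were taken from 8280 genes by Pearson r, as a description of arrays that share group and label set. H19 was followed by Suds3 (0.88), Stk40 (0.87) and Mapk12 (0.83), and Grb10 by Itga6 (0.87), Myadm (0.87) and S100a6 (0.86). Plagl1 was followed by Nid1 (0.86), a basement membrane protein, Gnai1 (0.84) and Smim14 (0.81), and Peg3 by Apcdd1 (0.83), Lrp1 (0.79) and Nid1 (0.77), so that Nid1 stood in both lists. The closest for the other 5 had lower r, with Trpv2 for Dlk1 (0.73), Acadm for Cdkn1c (0.72), Derl1 for Ndn (0.72), Col5a3 for Mest (0.71) and Sytl2 for Igf2 (0.69).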

How the data were processed

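Values were used as the authors deposited them, as intensity on a linear scale; the software, version and parameters that summarised the probes are not given in the sources used here, and the scaling to a trimmed mean of about 1000 (1000.34 to 1000.49 after the lowest and highest 2% were dropped) was read from the values. Per the labels, RNA was extracted with TRIzol and RNeasy. Negative deposited intensities counted as 0, a pseudocount of 50 was added and log2 taken, so differences understate changes of dim probe sets. For each of 7 comparisons limma 3.58.1 (lmFit, eBayes; R 4.3.3) was run on the 2 groups concerned; 64 control probe sets and the dimmest 40% by mean log2 value were left out, leaving 13576, and p-values were adjusted by Benjamini-Hochberg over them, with a threshold of 0.05. The number of arrays limits precision, and p-values measure the spread between samples, which may be technical. No 2 arrays shared more than 0.154% identical values.

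The genes described and the 16 lists (pathways and cell type markers) were chosen with earlier results of these data known. Genes of lists were named by smallest p, up to 6 called or, where none was, 3 short of the threshold; genes of like pattern were the 3 of highest Pearson r per gene. Symbols come from the platform annotation, in which 20393 probe sets have 1 symbol. The hepatocyte score is the mean log2 of 12 markers. Sequences are from RefSeq. Alternatives were quantile normalization, pseudocounts of 1 and 200, no filter, all 34 arrays in 1 fit, each replicate left out and, for gastrocnemius, arrays of high liver signal left out and the hepatocyte score as covariate. The steps were tested on simulated data.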

Additional observations from a re-analysis of the deposited data

Results flagged for a closer look

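A single array stood apart from the rest of its group in 9 of 100 groups of 4 or 5 arrays examined over the probe sets of the 9 genes, by Dixon's criterion; chance gives about 1 in 20. H19 in WT gastrocnemius at 8 months read 6942.8 in replicate 3 (others 5227.1 to 5399.9), and Plagl1 in GSL30 gastrocnemius 937.4 in replicate 4 (others 585.9 to 665). Both lie toward the opposite group of the GSL30 contrast.

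Igf2 in KO tibialis read 1343.8 in replicate 1 (others 1723.2 to 1759.1), inside the WT range. Peg3 1433924_at in WT liver read 475.6 in replicate 3 (others 379.5 to 391.8). Grb10 1425457_a_at in WT gastrocnemius at 8 months read 91 in replicate 5 (others 406.1 to 660.2). Ndn 1415923_at gave 3 of the 9: 1064.5 in KO tibialis replicate 2 (others 870.6 to 879.1), 1026.5 in WT tibialis replicate 4 (others 1243.8 to 1286.1) and 35.6 in WT liver replicate 2 (others 5.5 to 9.5). Ndn 1438939_x_at read 188.9 in WT tibialis replicate 1 (others 292.4 to 317.9).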

How the results depend on the processing

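Counts over all probe sets were 190 in KO tibialis, 20 in KO gastrocnemius, 1 in KO liver, 585 in GSL30, 840 with age, 9417 in liver over tibialis and 3669 in gastrocnemius over tibialis. Counts more than 1.5 times away were, without the filter, 96 (KO tibialis), 7 (KO gastrocnemius) and 259 (GSL30); with all 34 arrays in 1 fit, 291, 306, 32 (KO liver), 1093 (GSL30) and 1820 (age); with a pseudocount of 200, 3 in KO liver; without the arrays of high liver signal, 4 in KO gastrocnemius, 153 in GSL30, 95 with age and 1691 in gastrocnemius over tibialis; and with the hepatocyte score as covariate, 0 in GSL30 (limma, 2132 at an unadjusted p under 0.05) and 2 with age (1786). Leaving out each array in turn gave 63 to 300, 7 to 25, 1 to 8, 182 to 772 and 349 to 1023 for the first 5 comparisons, with 63 without KO tibialis replicate 2, 7 without KO gastrocnemius replicate 3 or 3-month WT gastrocnemius replicate 5, 8 without KO liver replicate 2, 182 without GSL30 replicate 2 and 349 without 3-month WT gastrocnemius replicate 1; it gave 8928 to 9406 and 2489 to 4012 for the other 2. Among the tissue tests of the 9 genes, single alternatives ended a call 7 times and added one 7 times in gastrocnemius over tibialis, and ended one 2 times in liver over tibialis. These counts cover only alternatives in which the probe set stayed above the filter. In liver over tibialis Ndn 1415923_at did so in 8 of 13. No tested value of the 9 genes changed direction past the threshold under these alternatives; the cause of the changed counts was not tested. No paired analysis was possible because the numbers in the sample titles run on across the groups and match no array of one group to an array of another. Dim probe sets, below the filter, carry no test.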

Other observations

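Probe sets below the filter of a comparison held 2 patterns that the tests could not reach. Peg3 1417356_at read 33.7, 173.9, 27.3 and 195.1 in KO tibialis and 17.3, 26.6, 23.6 and 28.2 in WT tibialis, so 2 KO arrays lay far above all others and 2 lay near them. The same probe set averaged 404.2 ± 101 (SD, n = 5) in WT gastrocnemius and 23.92 ± 4.81 (SD, n = 4) in WT tibialis at 3 months, without overlap, and read 15 to 32 in liver.

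Ndn 1456575_at went against the other Ndn probe sets between tissues, at 222.2 ± 9.16 in WT liver and 127.8 ± 45.7 in WT tibialis (SD, n = 4 each). Ndn 1455792_x_at averaged 8.75 ± 9.37 in WT liver and 1109 ± 231 in WT tibialis (SD, n = 4 each).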
